A study of Mus musculus with 14 samples.

Results

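Weak distal NANOG peaks bound alone are regions of the mouse genome where ChIP-seq gave a NANOG peak of low tag count. Each lies away from gene starts and away from the peaks of OCT4, MED1, MED12 and SIM2. They were 4350 of the 14815 peaks in the NANOG list. A member had a normalized tag count (tags in the peak, scaled to library size) of at most 4.6, and a centre outside the window from 1000 bp upstream to 300 bp downstream of every protein-coding transcription start in mm9. It also had no OCT4, MED1, MED12 or SIM2 peak within 100 bp. The comparison peaks had a normalized tag count of 8.5 or more, and 2095 of them met the same conditions on position and on the other factors. They are called strong peaks here, and the 4238 peaks between the limits that met those conditions are called intermediate.

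All the ChIP experiments were done in mouse embryonic stem (mES) cells, the pluripotent cells of the early embryo grown in culture, here in serum with Leukemia Inhibitory Factor. NANOG, OCT4, MED1 and MED12 were precipitated from cells of clone A6, which carries a FLAG-tagged mouse Sim2 transgene with a Venus reporter under the tetracycline-regulated hCMV*-1 promoter of a ROSA-TET system. SIM2 was mapped with an anti-FLAG antibody in the clones A6, B8 and C4, and the same antibody was used in EB3, the parental line without the Sim2 transgene. All 4 lines were kept without tetracycline for 26 h, so NANOG was mapped in cells that overexpressed SIM2. Each clone is a single cell line, and there was 1 NANOG library, so every comparison below is between peaks of that library. The confidence intervals given for shares (95%, Wilson) and for differences between shares (95%, Newcombe) cover counting error only, since peaks are not replicates, and they were not adjusted for the number of patterns compared.

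NANOG is a homeodomain transcription factor that helps to keep mES cells in the self-renewing, pluripotent state. It often occupies enhancers together with the POU factor OCT4 and the HMG-box factor SOX2, which can bind side by side on a joint composite element. Mediator, the complex that contains MED1 and MED12, connects such factors with RNA polymerase II. Enhancers with many bound factors usually give tall ChIP-seq peaks, whereas a peak of few tags lies closer to the limit of what a peak caller separates from background.

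The DNA of the peaks was read for 12 short sequence patterns, on both strands, in the deposited interval of 167 bases. They were an octamer-like pattern bound by POU factors (ATGCNAAT), an OCT-SOX composite (TTGTNATGC), a SOX-like pattern (CCATTGT), a 7-base pattern read by zinc-finger factors (CCTGCTG), a KLF-like pattern (CCNCACCC) and an ESRRB-like pattern of the orphan nuclear receptor (CAAGGTCA). These 6 are called the ES-cell patterns below. The other patterns were homeodomain-like (TAATGG, the kind of site that NANOG itself binds), STAT-like (TTCCNGGAA), CTCF-like (AGGGGGCGC or AGGTGGCAG), GATA-like (AGATAAG), AP-1-like, the site of JUN and FOS proteins (TGANTCA), and bHLH-PAS-like (TACGTG, the kind of site that SIM2 binds with its partner ARNT). The composite and the octamer-like pattern can share the bases ATGC. A match is a string of letters, not a measured binding site.

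The members below show what such regions look like. The first 3 and the last had the highest fold over the input among the members eligible for display with a match of the pattern they are named for, the fourth was picked in the same way for the KLF-like pattern, and all are on the plus strand of mm9 with the matches of any of the 12 patterns in capitals. The peak chr6:97668554-97668720 was intergenic, at -88415 bp (upstream) from the start of Mitf, a melanocyte lineage regulator, and had the highest fold of all members, with 24 total tags and 11.1 times the input. It held octamer-like and homeodomain-like matches on both strands. The intergenic peak chr3:24050539-24050705 had the composite, at 22 total tags. The intronic peak chr5:139467898-139468064 in Pdgfa, which encodes a platelet-derived growth factor chain, held CCTGCTG on the minus strand at 23 total tags. The intergenic peak chr5:119824889-119825055 joined a composite, an ESRRB-like and a KLF-like match, and chr2:168932457-168932623 held a single ESRRB-like match, both at 19 total tags.
octamer-like: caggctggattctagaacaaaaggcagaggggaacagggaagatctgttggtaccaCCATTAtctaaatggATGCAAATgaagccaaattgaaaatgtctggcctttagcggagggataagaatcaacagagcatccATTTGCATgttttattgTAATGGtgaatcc
OCT-SOX composite: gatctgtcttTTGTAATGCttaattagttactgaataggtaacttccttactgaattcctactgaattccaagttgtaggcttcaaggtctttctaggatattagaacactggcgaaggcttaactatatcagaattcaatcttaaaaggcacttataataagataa
CCTGCTG: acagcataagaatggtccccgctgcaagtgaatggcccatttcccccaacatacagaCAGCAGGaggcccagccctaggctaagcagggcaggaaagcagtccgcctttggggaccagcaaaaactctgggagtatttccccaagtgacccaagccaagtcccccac
composite, ESRRB-like and KLF-like: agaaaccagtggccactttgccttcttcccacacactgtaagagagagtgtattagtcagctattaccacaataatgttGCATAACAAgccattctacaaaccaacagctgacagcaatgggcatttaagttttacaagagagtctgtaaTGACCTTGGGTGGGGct
ESRRB-like: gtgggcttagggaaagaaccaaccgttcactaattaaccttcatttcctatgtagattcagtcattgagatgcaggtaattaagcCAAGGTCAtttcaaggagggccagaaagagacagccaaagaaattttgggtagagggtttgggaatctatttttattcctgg

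Most members held no ES-cell pattern, and 2270 of 4350 (52.2%) held none of the 12 patterns. The members without any match and with the highest fold are shown to give the other side of the picture. The first, chr15:60386304-60386470, was intergenic with 23 total tags and 10.6 times the input. The second, chr17:90304043-90304209, was intergenic with 21 total tags. Their tag counts were in the same range as those of the sequences with matches, which follows from the choice of both sets by the highest fold.
no match, first: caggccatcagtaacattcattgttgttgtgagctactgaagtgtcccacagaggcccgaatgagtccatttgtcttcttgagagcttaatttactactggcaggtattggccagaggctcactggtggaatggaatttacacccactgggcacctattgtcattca
no match, second: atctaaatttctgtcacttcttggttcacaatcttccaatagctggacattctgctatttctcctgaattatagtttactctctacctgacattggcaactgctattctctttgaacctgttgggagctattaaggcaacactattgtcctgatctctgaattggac

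The members were chosen by their normalized tag count and by the absence of other peaks, so these values describe them and test nothing. Their normalized tag counts took 6 values between 0.8 and 4.6, which rose in equal steps. If 1 step is 1 tag, as in a list scaled to 10 M (megatags), the NANOG library held about 12.9 M tags, and the limit of 4.6 corresponds to 6 tags. The sources used here do not say how this count relates to the total tags of the same list, which had a median of 11 at that limit, so the 6 is a reading of the scale alone. At the limit itself lay 1825 members, and 1533 peaks that met all other conditions lay 1 step outside it, at 5.4. Only 5 members had the lowest count of 0.8 and 45 had 1.5, while 1557 had 3.9.

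The list also gives each peak's total tags, a count that HOMER compared with the input and that is larger than the normalized tag count. It was between 10 and 24 in the members, with a median of 11. A total of 10 tags, the smallest in the members, was reached by 1767 of them (40.6%). A further 1018 members (23.4%) had 11 tags. The members therefore lay against the lower edge of the list, whereas the strong peaks had a median of 25 total tags and none under 12. The input tags given were 2.20 at 4255 of the 4350 members (97.8%), and at most 4.20 at any member. The same 2.20 was the lowest value and the median in the strong peaks too. The sources used here do not say whether it is a floor set for the input rather than a count. Where the input value is 2.20, the fold depends on the total tags alone. It was 4.61 at 1767 members, as many as had 10 total tags. The fold over the input was 4.27 to 11.1 with a median of 5.07, against a median of 11.1 in the strong peaks, and only 52 members had at least 8 times the input. The lowest fold, 4.27, was shared by 34 members, of which 1 was intronic in Dst, the gene of the cytoskeletal linker dystonin. The most input tags, 4.20, were found at 2 members, 1 of them intronic in Slc16a9, the gene of a monocarboxylate transporter family member. The focus ratio, the fraction of tags placed as a single binding site would place them, had a median of 0.750 in the members and 0.781 in the strong peaks.

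The absence of other factors also belongs to the rule, and the weak peaks with and without one are given as counts. Of the 4830 weak peaks, 160 lay in a promoter window and 4670 were distal. Another factor lay within 100 bp at 320 of the 4670 (6.85%), and 4350 (93.1%) were left. OCT4 was the partner at 100 (2.14%), SIM2 in any of the 3 clones at 206 (4.41%), and MED1 or MED12 at 45 (0.964%). Among the 4696 strong distal peaks, 2601 (55.4%) had another factor, with OCT4 at 1943 (41.4%) and SIM2 at 1490 (31.7%). Bound alone means only that no peak of these lists lay nearby, since a factor can be present below the threshold of its own list. SOX2, which the study also mapped in clone A6, was not analysed here, so bound alone says nothing of SOX2. Few weak distal peaks lay just beyond the window: the nearest other factor was over 100 to 200 bp away at 12, over 200 to 500 bp at 51 and over 500 to 1000 bp at 65. No member had a peak of the EB3 FLAG control within 100 bp (0 of 4350, which allows a share of up to 0.0690% by a limit of 3 counts and 0.0882% by the Wilson interval). That list holds 81 peaks, and none lay within 100 bp of a strong or intermediate peak either.

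**Figure D1:**
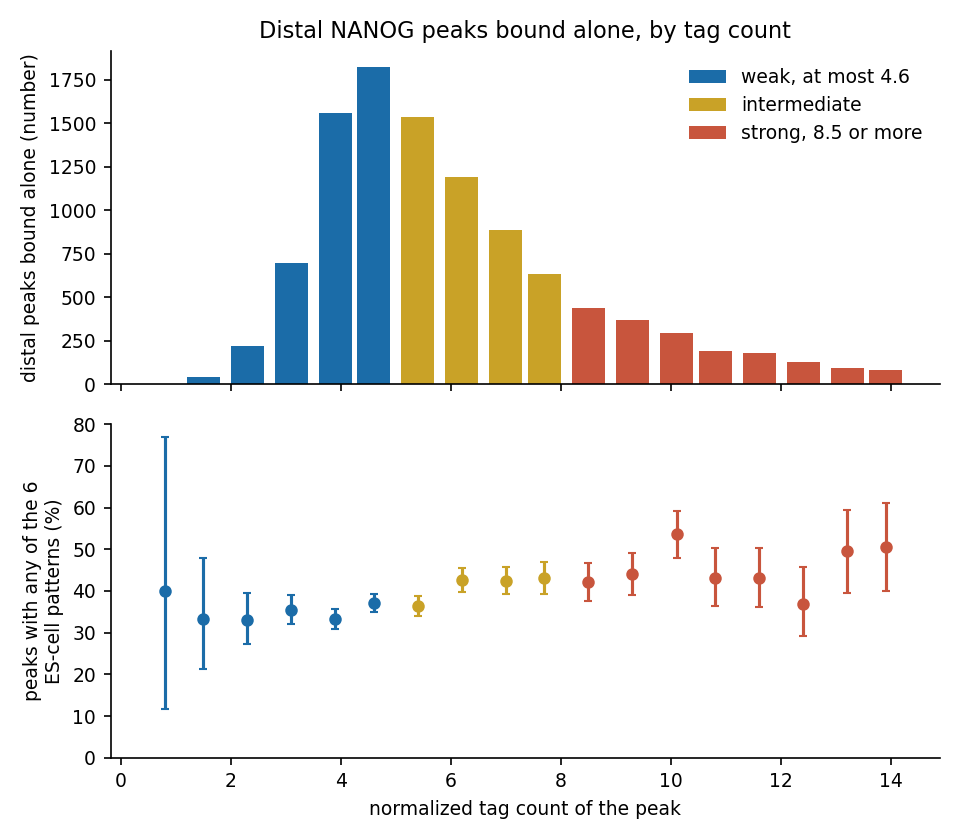
The upper panel plots the number of distal NANOG peaks bound alone at each value of the normalized tag count up to 13.9, and the lower panel the share of them with any of the 6 ES-cell patterns, with 95% Wilson intervals. The numbers peak at 4.6, and the shares of the weak peaks with at least 100 members a step lie between 33.0% and 37.2%.

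Sequence was not used to choose the members, and in it the weak peaks stood out from their surroundings. Any of the 6 ES-cell patterns was found in 1532 of 4350 members (35.2%, interval 33.8 to 36.7). As a local level, windows as long as the peaks and 10 kb away on each side held one in 1171 of 8699 cases (13.5%, interval 12.8 to 14.2). The difference was 21.8 percentage points (interval 20.2 to 23.4), and the share in the peaks was 2.62 times that in the windows. The share was lower than in the strong peaks, where 930 of 2095 (44.4%, interval 42.3 to 46.5) had a match. The difference between weak and strong was -9.17 percentage points (interval -11.7 to -6.62), and that between weak and intermediate peaks -5.13 points (interval -7.18 to -3.08). The windows around weak and around strong peaks held a pattern in 13.5% of cases each, with a difference of -0.0503 points (interval -1.33 to 1.19).

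The share with a match varied little across the members' own steps. It was 33.0% (interval 27.2 to 39.5) at a normalized tag count of 2.3, 35.4% (32.0 to 39.1) at 3.1, 33.2% (30.9 to 35.6) at 3.9 and 37.2% (35 to 39.4) at 4.6. Just outside the limit, at 5.4, it was 36.3% (34.0 to 38.8), and at 6.2 it was 42.6% (39.8 to 45.4). The total tags separated the members more at their ends: 32.0% (29.9 to 34.2) of the 1767 members with 10 tags had a match, against 45.5% of the 303 with 15 or more. That difference was 13.5 points (interval 7.57 to 19.5). Between these ends the share did not rise steadily, with 38.2% at 11 tags, 33.4% at 12 and 36.2% at 13 to 14. Among the 52 members with at least 8 times the input, 32 (61.5%, interval 48.0 to 73.5) had a match, against 832 of the 1849 strong peaks above the same fold (45.0%). In that small subset the difference between weak and strong peaks thus turned to 16.5 points (interval 2.77 to 28.7), with no member of under 30% GC among the 52.

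**Figure D2:**
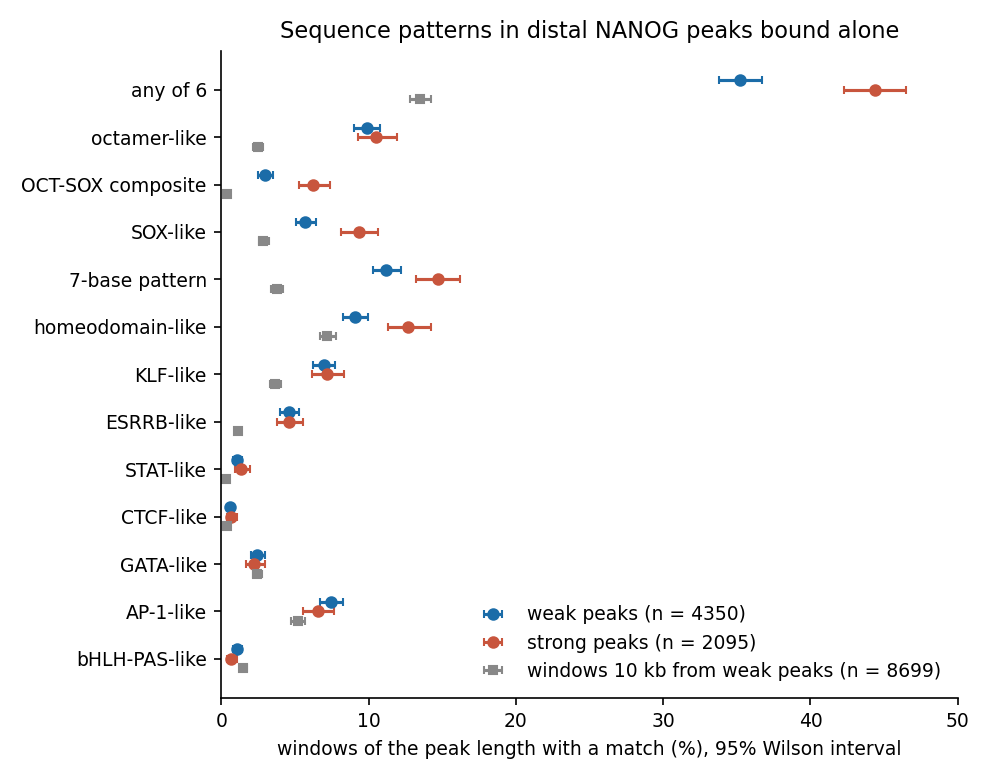
Points are the shares of weak peaks, strong peaks and windows 10 kb from the weak peaks with a match of each pattern, and bars are 95% Wilson intervals. The 7-base pattern is CCTGCTG, and the weak peaks lie above the windows for each of the 6 ES-cell patterns and near the strong peaks for the octamer-like, KLF-like and ESRRB-like patterns.

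The patterns of POU and SOX factors differed among themselves. The octamer-like pattern, a site for OCT4 and its relatives, was found in 430 members (9.89%) and in 2.46% of the windows beside them, which is 4.02 times as often. In the strong peaks it reached 10.5%, and the difference of -0.664 points had an interval (-2.29 to 0.885) that included 0. It passed that limit in 2 alternatives, at -3.14 points (interval -4.44 to -1.84) against all NANOG peaks of 8.5 or more and at -1.71 points (interval -3.11 to -0.404) within 100 bp of sequence. The OCT-SOX composite was the most concentrated pattern in the members relative to their windows, with 128 members (2.94%) against 0.391% (7.53 times). It was nevertheless found less often than in the strong peaks, where it reached 6.25%, with a difference of -3.31 points (interval -4.52 to -2.21). Both patterns were present in 18 members, and the octamer-like pattern without the composite gave 9.47% in weak and 10.3% in strong peaks (difference -0.839 points, interval -2.45 to 0.689). The SOX-like pattern was found in 248 members (5.70%), against 2.85% of the windows and 9.31% of the strong peaks, with a difference between weak and strong of -3.61 points (interval -5.08 to -2.23).

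Among the other ES-cell patterns, CCTGCTG was the most frequent, in 488 members (11.2%), against 3.75% of the windows and 14.7% of the strong peaks. Its difference between weak and strong peaks was -3.44 points (interval -5.25 to -1.69). The ESRRB-like pattern was found in 200 members (4.6%) and in 4.58% of the strong peaks, with a difference of 0.0154 points (interval -1.13 to 1.07), and it was 4.12 times as frequent in the members as in the windows (1.12%). ESRRB is an orphan nuclear receptor of the naive pluripotency network. The KLF-like pattern, read by Krüppel-like factors, was found in 302 members (6.94%), in 3.67% of the windows and in 7.16% of the strong peaks. The intervals of the ESRRB-like and KLF-like differences leave room for 1.13 and 1.60 points in favour of the strong peaks.

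The homeodomain-like pattern, the closest to NANOG's own site, was only slightly more frequent in the members than beside them. It was found in 394 members (9.06%) and in 7.20% of the windows, a difference of 1.86 points (interval 0.869 to 2.89). In the strong peaks it reached 12.7%, and the difference between weak and strong was -3.64 points (interval -5.34 to -2.02). The STAT-like pattern, the site of the factor downstream of Leukemia Inhibitory Factor, was rare but above the windows, with 47 members (1.08%) against 0.345%. The AP-1-like pattern was found in 7.45% of the members and 5.21% of the windows. The GATA-like pattern, a site of endoderm and blood regulators, was found in 2.44% of the members and 2.45% of the windows (difference -0.0118 points, interval -0.555 to 0.575). The CTCF-like patterns were found in 25 members (0.575%), and the difference from the windows of 0.207 points had an interval (-0.0320 to 0.500) that included 0. The bHLH-PAS-like pattern was less frequent in members than in windows (1.03% against 1.47%, difference -0.437 points, interval -0.816 to -0.0194). For the STAT-like, AP-1-like, GATA-like, CTCF-like and bHLH-PAS-like patterns, the interval of the difference between weak and strong peaks included 0. With the classes set by total tags instead, at most 11 against at least 20, the bHLH-PAS-like difference was 0.785 points (interval 0.256 to 1.29).

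The members that carried patterns mostly carried 1 of them. Of the 4350 members, 1284 (29.5%) had 1 of the 6 ES-cell patterns, 232 (5.33%) had 2 and 16 (0.368%) had 3 or more. In the strong peaks the same numbers were 36.7%, 7.26% and 0.430%. The most frequent pair of those counted was CCTGCTG with the ESRRB-like pattern, in 33 members, which is 6.76% of those with CCTGCTG and 16.5% of those with the ESRRB-like pattern.

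Matches of several ES-cell patterns were densest near the centres of the weak peaks, but not those of all. Within 25 bp of the centre the members had 0.772 octamer-like matches per kb of sequence, and 0.141 per kb from 300 to 400 bp away. CCTGCTG went from 0.878 to 0.252 per kb over the same distances, and the composite from 0.216 to 0.0345. The ESRRB-like pattern was at 0.257 per kb within 25 bp and at 0.345 from 50 to 75 bp, so its matches were not densest at the very centre. KLF-like matches were at 0.483 per kb within 25 bp and at 0.556 both from 75 to 100 bp and from 100 to 200 bp. The last of these ranges lies outside the deposited interval. In the middle of the interval the octamer-like pattern was 1.34 times as dense as toward its ends, the composite 1.53 times, CCTGCTG 1.26 times and the homeodomain-like pattern 1.30 times. The KLF-like pattern (0.968 times) and the ESRRB-like pattern (0.791 times) were no denser there. These densities are given as a description, without a test.

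**Figure D3:**
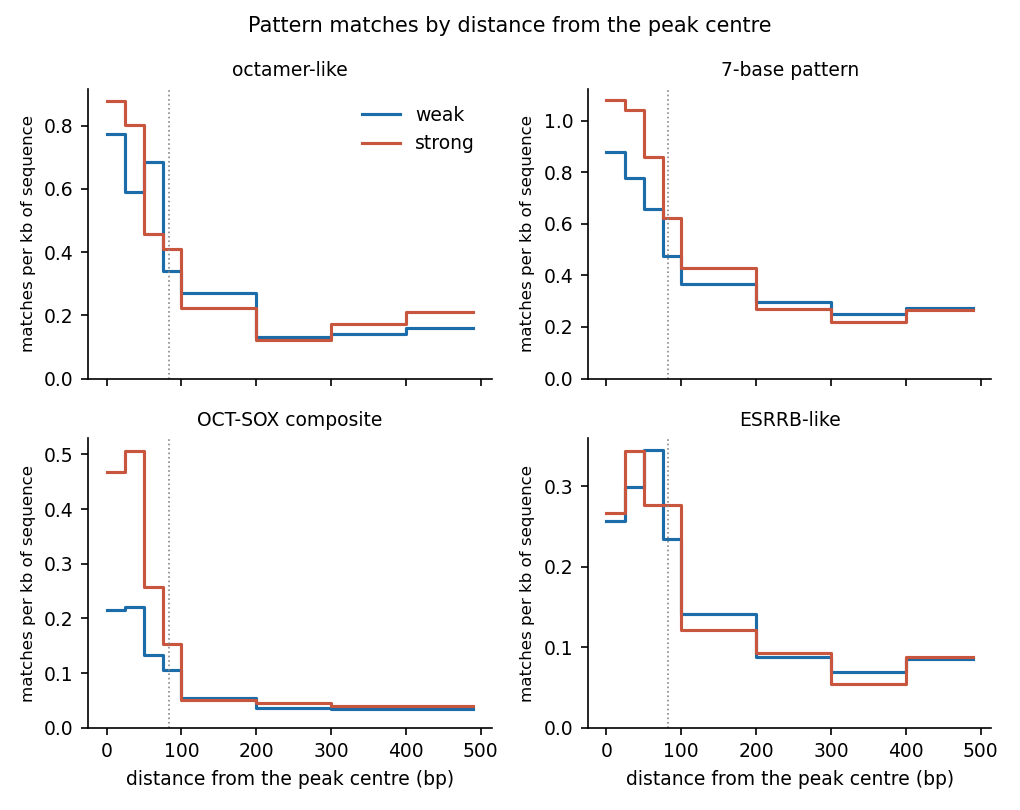
Matches per kb of sequence are plotted against the distance from the peak centre in bp, for weak and strong distal peaks bound alone. The dotted line marks the end of the deposited interval, and the 7-base pattern is CCTGCTG. In the weak peaks the octamer-like matches go from 0.772 per kb at the centre to 0.141 at 300 to 400 bp.

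Base composition set a portion of the weak peaks apart. The median GC content was nearly equal, at 41.9% in the members and 42.5% in the strong peaks. The lower end was not: under 30% GC lay 468 members (10.8%, interval 9.87 to 11.7), 4.03% of the intermediate and 23 of the strong peaks (1.10%, interval 0.733 to 1.64). The difference between weak and strong was 9.66 points (interval 8.62 to 10.7). In the windows around the members 6.68% lay under that limit, and in those around the strong peaks 6.16%. The members were thus above their windows and the strong peaks below theirs. The share under 30% GC was 17.4% in the members with 10 total tags and 3.63% in those with 15 or more, a difference of -13.8 points (15 or more minus 10 tags, interval -16.2 to -10.6).

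**Figure D4:**
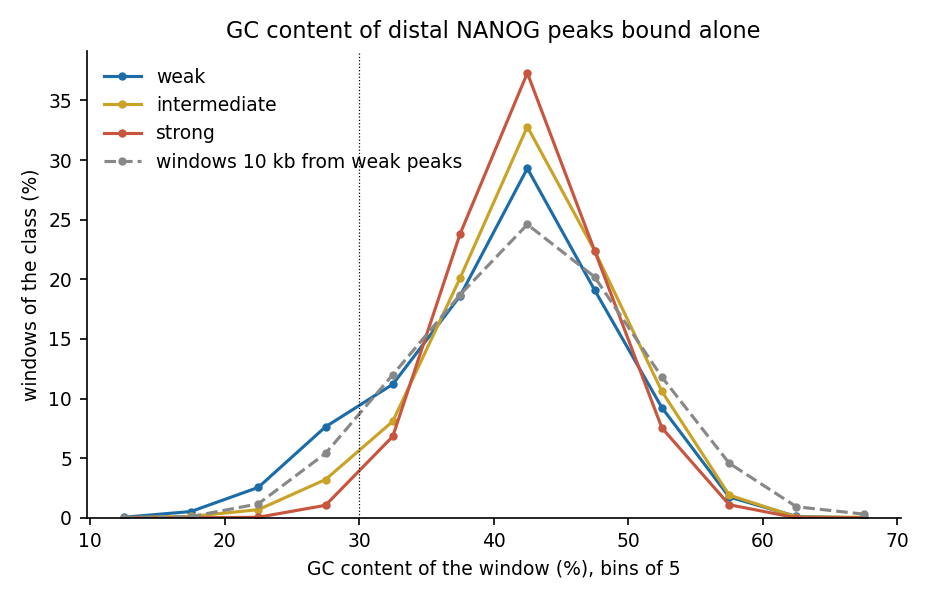
Lines give the share of windows of 167 bases in each bin of 5% GC for weak, intermediate and strong peaks and for the windows 10 kb from the weak peaks. The dotted line is at 30% GC, below which 10.8% of the weak and 1.10% of the strong peaks lie.

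The ES-cell patterns were scarce in the AT-rich members, and this moved together with the difference from the strong peaks. Under 30% GC, 39 of 468 members (8.33%) had an ES-cell pattern, against 27.2% from 30 to 40% GC, 41.0% from 40 to 50% and 57.3% from 50% upward. The 23 strong peaks under 30% GC had one in 26.1%, a difference of -17.8 points (interval -38.3 to -3.92). In the other bins too the weak peaks lay below the strong peaks, by differences of -8.19 points (interval -12.6 to -3.81) from 30 to 40% GC, -5.05 points (interval -8.52 to -1.59) from 40 to 50% and -9.50 points (interval -17.3 to -1.14) above. Without all peaks of under 30% GC, an alternative chosen after the data were seen, the difference was -6.14 points (interval -8.77 to -3.51) instead of -9.17. The octamer-like pattern had shares in weak and strong peaks of 11.6% and 11.7% from 30 to 40% GC and of 10.9% and 10.6% from 40 to 50%. The composite was lower in weak peaks in both, with 3.79% against 9.05% and 3.32% against 5.44%, and intervals that did not include 0 (-7.89 to -2.95 and -3.67 to -0.702).

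For CpG and repeated sequence the intervals of the differences included 0. No CpG was found in 36.3% of the members and 35.7% of the strong peaks (difference 0.618 points, interval -1.90 to 3.10). A peak was counted as repeat-like where its median 20-base word occurred 10 or more times in the genome, which held for 216 members (4.97%) and 6.06% of the strong peaks. That difference was -1.10 points (interval -2.36 to 0.0702). Of the 52 members with at least 8 times the input, however, 8 (15.4%, interval 8.01 to 27.5) were repeat-like.

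In position relative to genes, no difference between weak and strong peaks bound alone had an interval that excluded 0. Against all strong NANOG peaks, which include those in promoter windows and those with another factor, a start within 10 kb was less frequent (difference -3.86 points, interval -5.56 to -2.14). Of the members, 2585 (59.4%) were outside protein-coding transcripts, 1690 (38.9%) intronic and 75 (1.72%) exonic. In the strong peaks the shares were 58.5%, 39.9% and 1.62%, and the difference in intronic peaks was -1.01 points (interval -3.56 to 1.53). The nearest protein-coding start was at a median of 37360 bp from a member and 36787 bp from a strong peak. It lay within 10 kb at 20.7% of the members and 21.1% of the strong peaks (difference -0.479 points, interval -2.63 to 1.61), and within 100 kb at 72.8% and 72.5% (difference 0.300 points, with an interval that included 0).

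Other peaks were found less often around the weak peaks. Another NANOG peak lay within 10 kb of 1184 members (27.2%) and of 31.9% of the strong peaks, a difference of -4.71 points (interval -7.12 to -2.34). A NANOG peak of 8.5 or more lay within 10 kb of 394 members (9.06%) and of 13.9% of the strong peaks, a difference of -4.83 points (interval -6.58 to -3.16). Within 25 kb the shares with any NANOG neighbour were 44.1% and 45.6%, and the interval of the difference (-4.14 to 1.05) included 0. The list also gives each peak's fold over its local surroundings. It was at least 4.01 in the members (median 9.27) and at least 4.07 in the strong peaks (median 16.8). A lower limit on that fold could remove a weak peak beside another NANOG peak more readily than a strong one. Its part in these differences was not tested. An OCT4, Mediator or SIM2 peak from 100 bp to 10 kb away was found at 512 members (11.8%) and at 14.7% of the strong peaks (difference -2.98 points, interval -4.81 to -1.22).

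Taken one by one, the factors that can occupy enhancers with NANOG followed this order, with the SIM2 clones apart. OCT4 lay from 100 bp to 10 kb away at 5.33% of the members and 7.68% of the strong peaks (difference -2.35 points, interval -3.72 to -1.07). MED12 was found at 2.87% and 4.30% (difference -1.42 points, interval -2.48 to -0.467), and MED1 at 2.00% and 2.86% (difference -0.864 points, interval -1.75 to -0.0817). SIM2 of clone A6, the clone in which NANOG was mapped, was found at 6.02% and 7.68% (difference -1.66 points, interval -3.05 to -0.362). Against all NANOG peaks of 8.5 or more the intervals included 0 for OCT4 (5.58% of those peaks, difference -0.248 points, interval -1.18 to 0.689) and for SIM2 of A6 (difference -0.533 points, interval -1.53 to 0.467). Only the nearest peak of a factor was counted, so that a strong peak with OCT4 within 100 bp does not enter that 5.58%. The intervals of the other SIM2 clones included 0, with differences of -0.925 points in B8 (interval -2.16 to 0.219) and -0.0509 points in C4 (interval -0.719 to 0.519).

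**Figure D5:**
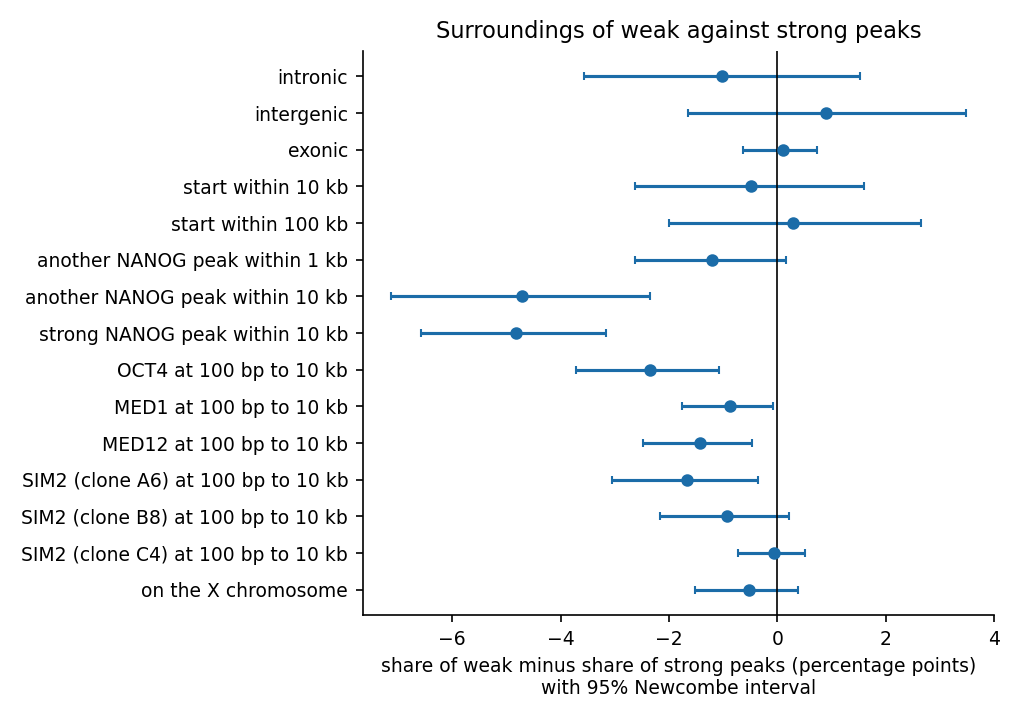
Points give the share of weak peaks minus the share of strong peaks with each feature, in percentage points, and bars are 95% Newcombe intervals. Gene features straddle 0, while a NANOG neighbour within 10 kb is at -4.71 points and an OCT4 peak from 100 bp to 10 kb away at -2.35.

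The weak peaks that did have another factor within 100 bp differed from the members in sequence. Any of the 6 ES-cell patterns was found in 146 of these 320 peaks (45.6%), against 35.2% of the members, a difference of -10.4 points (interval -16.1 to -4.85). The composite was found in 6.25% of them and 2.94% of the members (difference -3.31 points, interval -6.55 to -1.07). The bHLH-PAS-like pattern was found in 9 of the 320 (2.81%) and 1.03% of the members (difference -1.78 points, interval -4.24 to -0.407). It was not clearly above the windows beside those 320 peaks, which held it in 2.19% (difference 0.625 points, interval -1.34 to 3.22). Those windows also held an ES-cell pattern more often than the windows around members, at 17.0% against 13.5%. Their median GC content was 45.5%, against 41.9%, and their median total tags were 12 against 11. The part of base composition and tag count in these differences was not tested.

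Weak peaks were found near genes of the pluripotency network. Among all 22202 protein-coding genes, 17.8% had a member within 50 kb of a start and 8.75% a strong distal peak bound alone. Of 29 annotated genes of a 30-gene pluripotency list, 14 (48.3%) had a member and 11 (37.9%) a strong peak. Of 29 annotated genes of a 30-gene list of lineage regulators, 5 (17.2%) had a member and 4 (13.8%) a strong peak, close to the background. The lists were chosen with earlier results of these data known, and a window around a gene start says nothing of which gene a peak acts on.

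Several genes of the pluripotency list had a member nearby. For Pou5f1, the gene of OCT4, the nearest member was chr17:35627421-35627587, 15478 bp upstream of the start, with 10 total tags, a normalized tag count of 3.9 and a SOX-like match. In an intron of Esrrb the member chr12:87819849-87820015 lay 8865 bp downstream of the start with 10 total tags, 4.61 times the input, and an octamer-like and a KLF-like match. A strong peak bound alone lay 974 bp from the start of the same gene. The member nearest to Lefty1, which encodes an inhibitor of Nodal signalling, was chr1:182888926-182889092, in an intron of Tmem63a and 23856 bp downstream of the Lefty1 start, with 11 total tags and octamer-like matches. These sequences are shown because they join a weak tag count with matches near regulators of pluripotency, on the plus strand of mm9 with the matches in capitals.
Pou5f1: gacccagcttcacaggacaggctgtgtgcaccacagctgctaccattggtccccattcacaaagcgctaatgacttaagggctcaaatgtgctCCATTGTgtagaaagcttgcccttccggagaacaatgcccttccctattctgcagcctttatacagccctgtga
Esrrb: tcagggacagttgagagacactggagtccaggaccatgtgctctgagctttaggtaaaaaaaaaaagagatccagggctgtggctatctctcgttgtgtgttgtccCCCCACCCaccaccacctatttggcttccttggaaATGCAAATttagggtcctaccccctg
Lefty1: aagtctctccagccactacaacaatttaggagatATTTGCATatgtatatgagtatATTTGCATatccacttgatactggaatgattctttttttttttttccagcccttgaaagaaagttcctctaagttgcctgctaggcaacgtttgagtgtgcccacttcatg

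The other transcription factor genes of the list with a member were spread over similar distances. Nr5a2, which encodes an orphan nuclear receptor that can act upstream of Pou5f1, had a member 2231 bp downstream of a start, in an intron, with a normalized tag count of 4.6 and a KLF-like match. The member of Tbx3, a T-box factor gene, lay 13010 bp upstream, and that of Sall1, a zinc-finger gene, 29108 bp upstream. Zfp42, the gene of the marker REX1, had a member 23118 bp downstream of its start. The nearest member to Id1, a target of BMP signalling, lay 33618 bp downstream with KLF-like, ESRRB-like and GATA-like matches.

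Signalling and other genes of the list were also represented. Nodal, the TGF-beta family ligand, had a member 1070 bp upstream of its start, just outside the promoter window, with 16 total tags and 7.38 times the input but no match. Tcl1, which encodes an activator of AKT, had a member 2251 bp upstream with 17 total tags and 7.84 times the input, the highest fold among the members nearest to list genes. Fgf4, the growth factor gene regulated by OCT4 and SOX2, had a member 5972 bp downstream of its start with 10 total tags. Lin28a, the RNA-binding protein gene, had one 2456 bp downstream in an intron with 15 total tags. Lifr, the gene of the Leukemia Inhibitory Factor receptor, had one 45685 bp upstream. The Nodal, Tcl1, Fgf4, Lin28a and Lifr members held none of the 12 patterns.

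Some of the best known genes of the network had no member within 50 kb, as was the case for most protein-coding genes, of which 17.8% had one. The rule also leaves out any NANOG peak at these genes with OCT4, Mediator or SIM2 within 100 bp. The nearest member was 72548 bp from a start of Nanog itself, 77678 bp from Sox2 and 468420 bp from Klf4. Klf2 and Tdgf1 had no member within that distance but had a strong peak bound alone 7802 bp and 1408 bp from a start. Among the lineage genes, Eomes, a T-box gene of mesendoderm, had a member 2235 bp downstream of a start in an intron, and Gsc, the homeobox gene goosecoid, one 5596 bp upstream. Foxa2, the endoderm regulator, had one 16560 bp downstream, Pax3 one 28682 bp downstream in an intron, and the muscle regulator Myf5 one 42869 bp upstream with an octamer-like match.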

How the data were processed

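Peak lists of 8 ChIP-seq libraries of mouse ES cells were used. Per the submitters' notes and methods, the authors used BWA to map reads to mm9, discarded duplicates and ran HOMER on each ChIP against an input. NANOG and OCT4 share 1 input library, as do MED1 and MED12. The deposited normalized tag count is a signal per library size, the focus ratio, also deposited, is a fraction, and the score is the peak caller's own, as deposited by the authors. The total tags deposited for NANOG are whole counts. HOMER also gave the authors the ratio of ChIP to input tags (the fold), with a p-value that the authors deposited and that was not used here.

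Members and gene lists were chosen with earlier results of these data known. Intervals were read as 1-based positions in NCBIM37, the assembly of mm9, with starts from GENCODE vM1. Windows 10 kb to either side of each peak gave the local level of each pattern. Copies of each 20-base word were counted in the whole genome, in place of repeat masking. The genes named were those of the lists with a member within 50 kb of a start, each with its nearest member. The sequences shown were, for a pattern or for no match, the members of highest fold off chromosome 18, the intervals of named genes shown were picked after their matches were seen, and the members of highest and lowest fold and most input tags were also named. Distances for genes without a member, and strong peaks beside genes, were also picked after their values were seen.

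Shares were compared by the Newcombe interval of their difference, since 1 NANOG library gives no replicate test. Python 3.11.15, numpy 2.4.6, pandas 2.3.3, scipy 1.17.1, pysam 0.24.0, numba 0.67.0 and matplotlib 3.10.9 were used, and steps were tested on simulated data with bedtools 2.31.1. One gene of the pluripotency list is counted but not reported here by name.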

Additional observations from a re-analysis of the deposited data

How the results depend on the processing

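Of 413 recomputed values, 346 differences kept their sign and their side of the threshold (an interval that excludes 0) and 14 counts stayed within 1.5 times. A further 30 differences, of 13 results, changed sign with both intervals including 0, among them the octamer-like difference at 8 times the input (8.31). Only NANOG peaks of at least 8 times the input (52 members) turned the weak-minus-strong difference to 16.5 points for any ES-cell pattern, 9.33 for the composite, 4.52 for CCTGCTG, 2.07 for the SOX-like pattern, 9.54 for repeat-like peaks, -0.865 for under 30% GC and 0.891 for a NANOG neighbour. The other-factor difference became -1.03 there, and -1.43 with the exclusion at 1000 bp. The neighbour difference was -1.54 at 25 kb. Against all peaks of 8.5 or more the octamer-like difference was -3.14 and that of a start within 10 kb -3.86. Within 100 bp of sequence the octamer-like difference was -1.71. The bHLH-PAS-like difference passed the threshold with members chosen by total tags (0.785), and the homeodomain-like one (-5.45) no longer did at 8 times the input. The repeat-like difference passed the threshold 1 step higher (-1.44), by centres within 100 bp (-1.20) and with members chosen by total tags (-1.42). The limit 1 step lower gave 2525 members. List genes with a member were 9 of the pluripotency list within 20 kb, and 3 and 8 of the lineage list within 20 and 100 kb. Leaving out each SIM2 clone gave -9.69 to -8.85 points for any pattern. Comparing each member with its own windows changed no side of the threshold for any of the 12 patterns. The alternatives on repeats, GC, total tags, chromosome 14 and own windows were chosen after the data were seen. Peaks without soft-masked bases were not run, because the reference used here is not soft-masked. The causes were not tested. No paired analysis was possible because 1 NANOG library leaves no samples to pair by replicate number.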

Other observations

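The members were unevenly spread on chromosome 14. In 10 Mb bins along the chromosomes the median number of members was 16, and the 4 bins from 70 to 110 Mb of chromosome 14 held the most, with 48, 43, 33 and 41 members against 23, 14, 14 and 5 strong peaks. That stretch is 1.52% of the length of chromosomes 1 to 19 and X and held 165 members (3.79%) and 56 strong peaks (2.67%). Of its members 33.3% had under 30% GC and 20.6% an ES-cell pattern, against 9.79% and 35.8% on the other chromosomes, and their median distance from a protein-coding start was 117132 bp against 35665 bp. The input was above its lowest value at 3.03% of these members, but at 29.2% of the intermediate and 48.2% of the strong peaks there, compared with 5.59% and 10.2% on the other chromosomes. The same stretch held 99 of the 762 MED1 peaks, 78 of the 631 SIM2 peaks of clone C4 (12.4%), 5.98% of the MED12 peaks and 5.52% of those of clone B8, against 2.14% of the SIM2 peaks of clone A6, 2.92% of the OCT4 and 2.74% of the NANOG peaks. Of the 81 peaks of the EB3 FLAG control it held 6 (7.41%, interval 3.44 to 15.2). The stretch was picked after the counts were seen, and the part of base composition or of the input in them was not tested. Without it the difference in ES-cell patterns between weak and strong peaks was -8.44 points (interval -11.0 to -5.85).

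Without a prior list of patterns, all 6-base words found in at least 50 of the windows beside the members were ranked by their share in members over that in windows. Among 2018 words the first was TCCGGA, in 1.70% of the members and 0.621% of the windows. It was followed by ATTAGC (12.6% against 5.36%), CAATTG (5.95% against 2.68%), TAATTA (12.3% against 5.89%) and AATTAG (16.2% against 7.81%). Of these words, all but TCCGGA are AT-rich. Whether homeodomain factors read the AT-rich words was not tested. On the other strand ATTAGC reads GCTAAT, which can end a match of the octamer-like pattern ATGCNAAT. Further down, TGCTAA (15.9% against 7.77%), TGCAAA (21.4% against 11.1%) and ATGCAA (16.6% against 9.13%) can also lie within such a match. How often these words lay in octamer-like matches was not tested. The word ATTAGC was found in 15.5% of the strong peaks. Words that hold CG stood at both ends. Near the top, beside TCCGGA, were GCGGAA (1.75% against 0.851%) and CCGGAA (3.24% against 1.62%). The last word was CGCGGC, in 0.115% of the members and 0.609% of the windows. The ranking is a description, and words that overlap are counted more than once.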
